A study of Mus musculus with 3 samples.

Results

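The genes described here are 10 subunits of the ionotropic glutamate receptors, chosen by symbol from the 28001 features of the count matrix. Gria1, Gria2, Gria3 and Gria4 encode the 4 subunits of AMPA receptors, and Grin1, Grin2a, Grin2b, Grin2c, Grin2d and Grin3a encode 6 subunits of NMDA receptors. RNA of these genes was counted cell by cell in nucleus accumbens tissue, cut as a 400 um coronal piece from mice of the Thy1::ChR2 strain, in which a Thy1 promoter drives the light-gated channel ChR2 in subsets of neurons. All 3 samples belong to 1 group that received FLiCRE while ChR2 was stimulated, so the series holds no unstimulated control and classes of cells were compared inside the same libraries. FLiCRE is a recorder that switches on a reporter gene where raised calcium and light meet, and the reporter is read here as mCherry UMIs. A UMI is a molecular tag that counts copies of 1 RNA molecule once. The 3 libraries are numbered by the suffix of their cell barcodes, which nothing ties to a numbered sample. Nothing states that they came from separate animals. The p-values therefore measure only the scatter left among the sums of these libraries once differences between libraries are fitted, and that scatter may be technical.

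AMPA receptors carry most fast excitatory current, and NMDA receptors pass calcium when glutamate and a co-agonist bind while the membrane is depolarised. Spiny projection neurons of the accumbens receive their glutamate from cortex, hippocampus, amygdala and thalamus. Receptors are tetramers, and the mix of subunits sets conductance, calcium entry, magnesium block and the partners a receptor can bind. Grin1 encodes the obligatory NMDA subunit, Grin2a to Grin2d encode the glutamate-binding partners, and Grin3a encodes a glycine-binding subunit that lowers calcium entry.

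The pore position that sets calcium entry is shown as background to the composition, which counts RNA of each gene and does not read this codon. Each sequence is 42 bases of the spliced coding strand from the GENCODE M21 transcripts (build mm10), with the pore codon in capitals: the glutamine codon (Q/R site) in AMPA subunits and the asparagine codon in NMDA subunits.
Gria1: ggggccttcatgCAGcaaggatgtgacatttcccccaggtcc
Gria2: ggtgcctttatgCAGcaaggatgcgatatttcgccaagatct
Gria3: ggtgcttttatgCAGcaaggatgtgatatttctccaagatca
Gria4: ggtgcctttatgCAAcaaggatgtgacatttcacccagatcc
Grin1: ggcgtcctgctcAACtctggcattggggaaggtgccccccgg
Grin2a: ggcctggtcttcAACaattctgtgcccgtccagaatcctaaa
Grin2c: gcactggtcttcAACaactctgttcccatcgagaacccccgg
The genome codes glutamine at this site in all 4 AMPA subunits, with the codon CAA in Gria4 and CAG in the other 3. In Gria2 RNA the codon is edited to arginine by the enzyme that Adarb1 encodes, which closes the channel to calcium. Counts of 3′ ends do not read this editing. The Gria2 codon is number 607 of 883 in its reading frame and lies in exon 11 of 16, on the minus strand at chr3:80706911-80706913. The Gria1 codon lies in exon 11 of 16 on the plus strand at chr11:57243094-57243096, the Gria3 codon in exon 11 of 16 on the plus strand at chrX:41610265-41610267, and the Gria4 codon in exon 12 of 17 on the minus strand at chr9:4464137-4464139. All 3 NMDA codons shown lie on the minus strand. They are in exon 14 of 21 of Grin1 (chr2:25297386-25297388), exon 10 of 14 of Grin2a (chr16:9653561-9653563) and exon 11 of 15 of Grin2c (chr11:115253863-115253865).

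Cells were placed in classes by their own marker genes, and 6237 of the 9923 cells kept from 11625 fell in a class. The gated neurons were 1573 D1-like and 1145 D2-like spiny neurons, 82 Tshz1-Pcdh8 neurons, 213 glutamatergic neurons, 37 Pvalb-like and 30 Sst-Npy-like interneurons and 3 cholinergic cells, beside 732 astrocytes and 104 oligodendrocyte precursors (OPC). Markers were at least 2-fold above all other cells for 5 of 5 listed genes in D1-like neurons and 8 of 8 in astrocytes and in OPC. In D2-like neurons 4 of 5 were, led by Adora2a at 834 CPM (UMIs of the gene per 1e6 UMIs of the class), while Drd2 itself stood at 3.03 CPM, so that class rests on Adora2a, Penk, Gpr6 and Sp9. In Pvalb-like neurons 4 of 5 were, and Syt2 was not. Kept cells of libraries 1 to 3 held 2789355, 14578665 and 6276639 UMIs, the median cell 986, 2094 and 2674, and any pair of libraries shared 7 to 22 barcode sequences. A class needed 10 cells in a library to be used, which left libraries 2 and 3 for Tshz1-Pcdh8 neurons, libraries 1 and 2 for Pvalb-like neurons and library 2 alone for Sst-Npy-like neurons. Neuronal RNA was counted in droplets gated as other cells, and its source was not tested. The 8 neuron markers summed to 104, 1083 and 257 CPM in microglia of libraries 1 to 3, and microglial values serve below as the background. In astrocytes the same sum was 152, 827 and 353 CPM, so this background is only approximate for other glia.

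**Figure D1:**
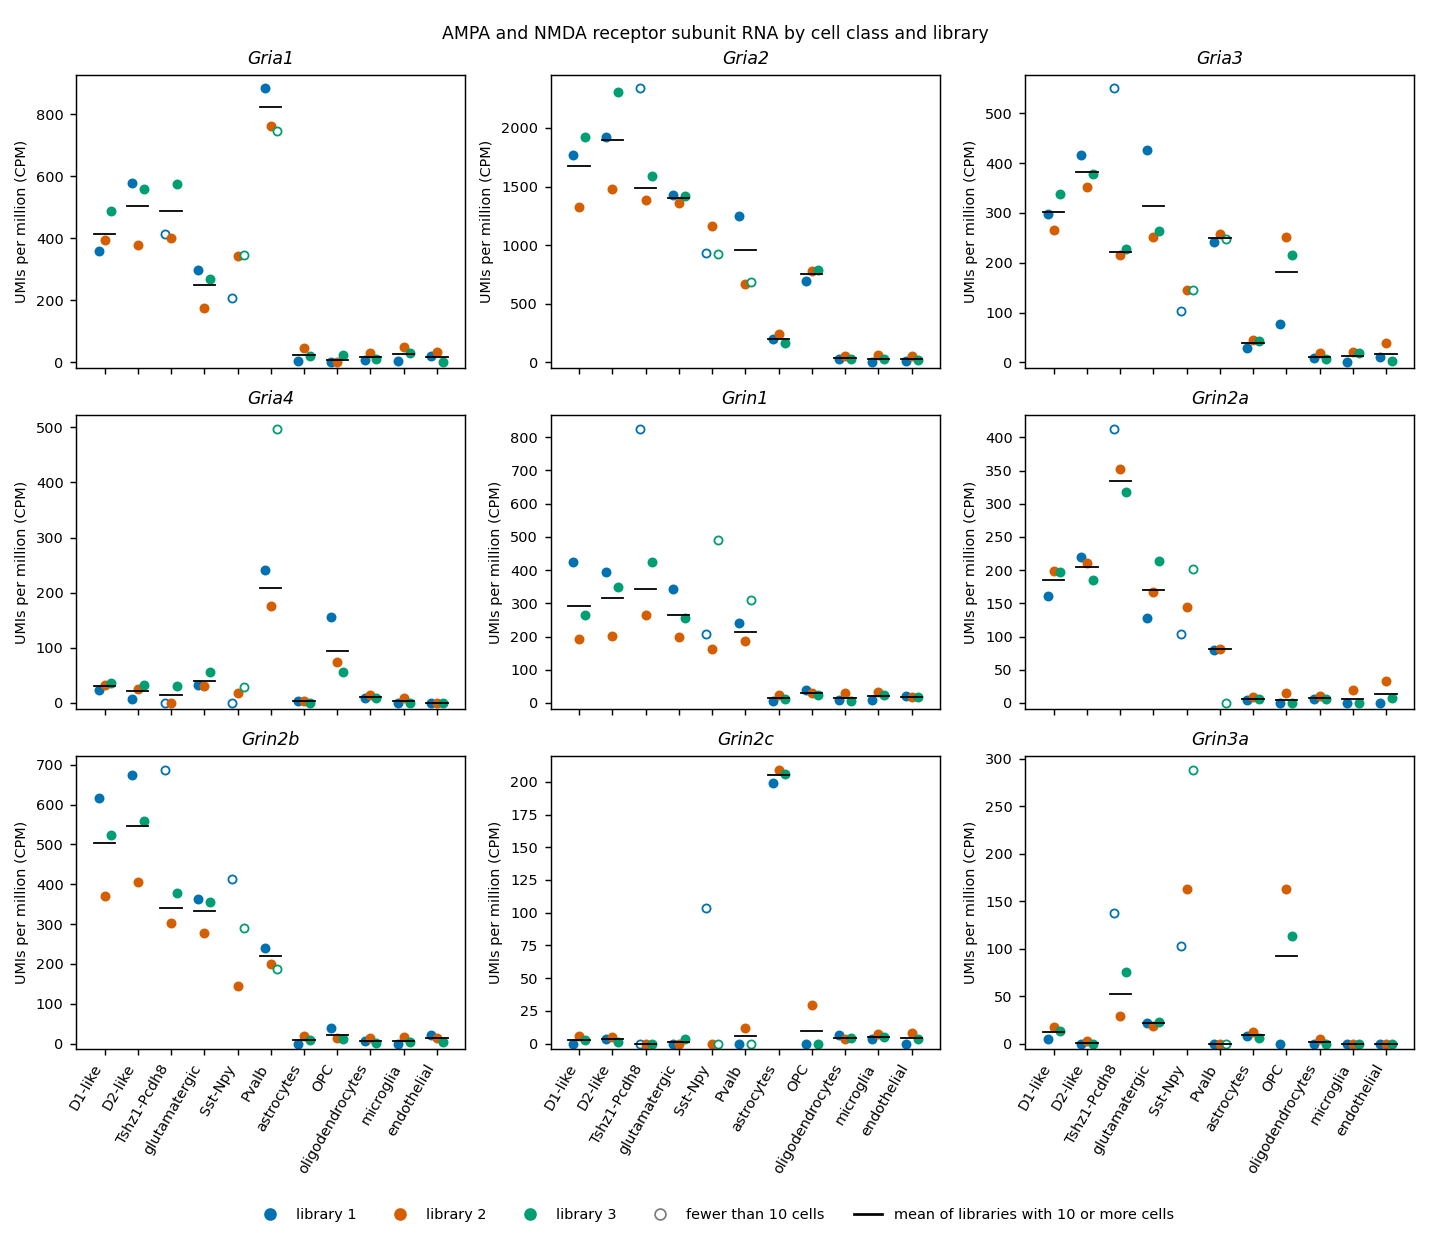
Levels in CPM (linear y axis) of 9 subunits in 11 cell classes (x axis), 1 point per library, with filled points for classes of at least 10 cells in that library, open points for fewer, and lines for the mean of the filled points. Gria2 stands highest in spiny neurons, Gria4 in Pvalb-like neurons, Grin2c in astrocytes, and Grin3a in Sst-Npy-like neurons and OPC of libraries 2 and 3.

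Gria2, the subunit that makes AMPA receptors impermeable to calcium once edited, was the AMPA subunit with the most UMIs in these neuron classes, in astrocytes and in OPC, in every library with at least 10 cells of the class but Pvalb-like neurons of library 2. In D1-like neurons it stood at 1769.9, 1329 and 1921 CPM in libraries 1 to 3, and in D2-like neurons at 1924, 1475 and 2303 CPM. D2-like neurons were the higher of the pair inside each of 3 libraries, but the ranges of the classes overlap. Glutamatergic neurons had 1431, 1362 and 1416 CPM, the narrowest spread of any neuron class. Tshz1-Pcdh8 neurons had 1387 and 1586 CPM in libraries 2 and 3, inside the range of D1-like neurons. Lower levels were found in Sst-Npy-like neurons (1159.8 CPM in library 2), Pvalb-like neurons (1245 and 668 CPM in libraries 1 and 2) and OPC (698, 783 and 791 CPM). OPC and Pvalb-like neurons overlapped at this level. Astrocytes had 197, 239 and 167 CPM, above the 3.84, 65.3 and 29.1 CPM of microglia in each library.

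Gria1, whose long tail links receptors to activity-dependent trafficking, was highest in Pvalb-like neurons. It stood there at 883 and 762 CPM in libraries 1 and 2, against 359, 396 and 488 CPM in D1-like neurons and 578, 379 and 559 CPM in the D2-like class. No Pvalb-like value overlapped a spiny value. Glutamatergic neurons held 299, 175 and 269 CPM, below both spiny classes in each library. In OPC only 2 Gria1 UMIs were counted in 104 cells, both in library 3, which gave 0, 0 and 22.6 CPM. In astrocytes Gria1 was 3.95, 47.2 and 20.4 CPM, beside 3.84, 48.3 and 29.1 CPM in microglia, so the astrocyte level did not stand above background.

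Gria3, an AMPA subunit that usually pairs with Gria2, ranged from 265 to 416 CPM in spiny neurons. Each D1-like library (299, 265 and 338 CPM) stood below the D2-like value of the same library (416, 352 and 378 CPM). OPC held 77.6, 251 and 215 CPM, overlapping Pvalb-like neurons (241 and 258 CPM) and lying below glutamatergic neurons (427, 252 and 264 CPM), only narrowly in library 2. Gria4, a subunit of fast receptors, was the rarest AMPA subunit in spiny neurons, at 30.6 ± 6.67 CPM in D1-like neurons and 22.3 ± 13.1 CPM in the D2-like class (mean ± SD, n = 3 libraries). Pvalb-like neurons held 241 and 176 CPM, and OPC held 155, 73.9 and 56.5 CPM. Both classes stood above every spiny library, whose highest value was 35.4 CPM. The OPC values rest on 4, 5 and 5 UMIs and the Pvalb-like values on 6 and 15.

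Grin1, Grin2a and Grin2b followed the neuron gate, with no glial class near the neurons. Grin2b was the leading NMDA subunit in spiny neurons, at 616, 369.9 and 523 CPM in D1-like neurons and 675, 404 and 559 CPM in the D2-like class. Library 2, the largest, was the lowest in both classes, and the classes overlap. Grin1 ran from 192 to 423 CPM in these classes and was also lowest in library 2. Grin2a was steadier, at 161, 199 and 197 CPM in D1-like neurons and 219.8, 211 and 185 CPM in the D2-like class. In Tshz1-Pcdh8 neurons Grin2a stood at 352 and 317 CPM, above every value of the other neuron classes of at least 10 cells. Pvalb-like neurons held 80.3 and 82.0 CPM of Grin2a, from only 2 and 7 UMIs. In astrocytes Grin1, Grin2a and Grin2b had means of 14.6, 5.95 and 9.11 CPM, beside 21.9, 6.45 and 7.26 CPM in microglia. Only the Grin2b mean was higher in astrocytes, with SDs of 9.02 and 8.71 CPM, so none stood clearly above background.

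Grin2c and Grin3a had patterns of their own. Grin2c, known from cerebellar granule cells and astrocytes, stood at 199, 209 and 206 CPM in astrocytes, on 101, 151 and 111 UMIs. No other class with at least 10 cells exceeded 29.6 CPM in a library, and spiny neurons stayed at or below 5.62 CPM, like microglia (3.84, 7.25 and 4.85 CPM). Grin3a was high in Sst-Npy-like neurons, at 163 CPM in library 2 (9 UMIs in 16 cells). In libraries 1 and 3, where the class had 7 cells each, it stood at 103 and 289 CPM, on 1 and 10 UMIs. OPC held 0, 163 and 113 CPM, from 0, 11 and 10 UMIs. At the depth of library 1, 3 UMIs would have made 116 CPM, so its 0 did not set OPC of that library apart. Grin3a had 0 UMIs in Pvalb-like neurons and in microglia in every library. The 3 cholinergic cells, all of library 2, held 6 Grin3a UMIs (231 CPM). Grin2d had 0 UMIs in 11625 deposited cells, which allows a share of cells with a UMI of up to 0.0258%. Whether 3′ capture of this gene failed was not tested.

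**Figure D2:**
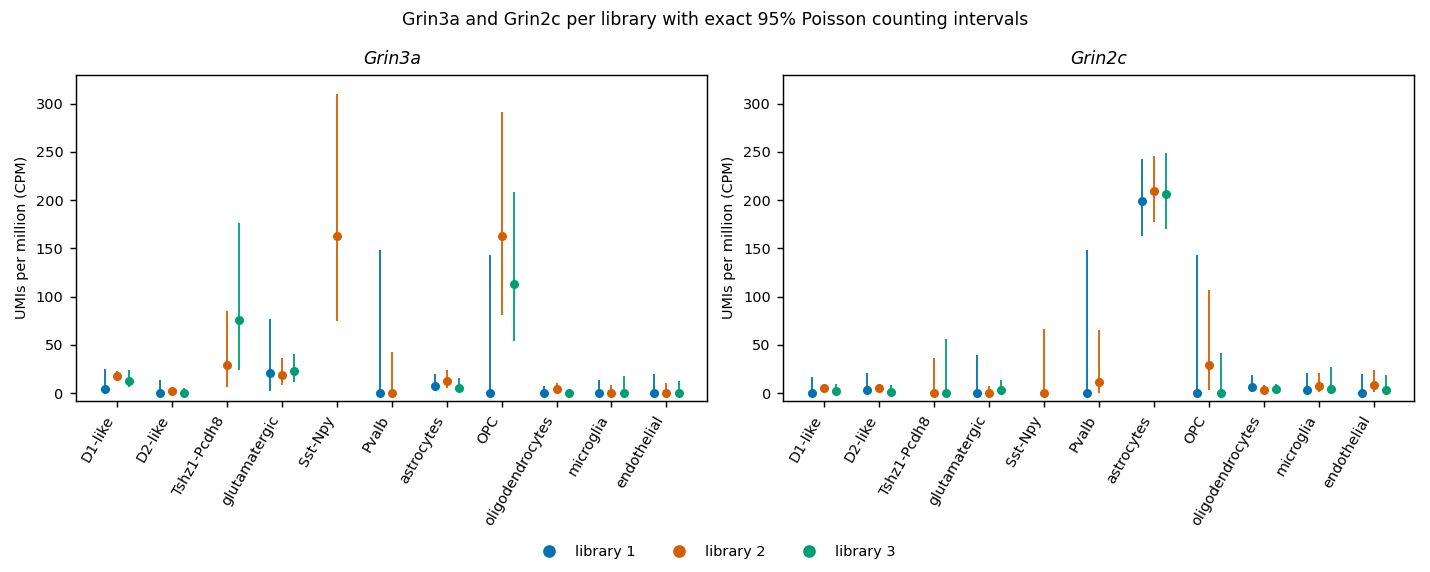
Grin3a (left) and Grin2c (right) in CPM (linear y axis) for each class and library with at least 10 cells; bars are exact 95% Poisson intervals and cover counting error only. Grin2c of astrocytes sits between 199 and 209 CPM in 3 libraries, and Grin3a of OPC is 0, 163 and 113 CPM with wide intervals.

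Subunit composition was read as the share of each subunit in the AMPA or NMDA subunit UMIs of a class. UMIs mark 1 end of each RNA, so shares were not divided by length, and how completely each 3′ end was captured was not tested. The Gria2 share was similar over spiny, Tshz1-Pcdh8, glutamatergic and Sst-Npy-like neurons, while the Gria1 share was not. Gria2 made up 68.98 ± 3.28% of AMPA UMIs in D1-like neurons and 67.4 ± 2.57% in the D2-like class (SD, n = 3), 70.3 ± 4.73% in glutamatergic neurons (n = 3), 67.4 ± 2.58% in Tshz1-Pcdh8 neurons (n = 2) and 69.6% in the Sst-Npy-like library. Gria1 made up 13.7, 9.64 and 13.4% in glutamatergic neurons, below every spiny library (14.6 to 19.8%), and 20% and 23.8% in Tshz1-Pcdh8 neurons, above every spiny library. Pvalb-like neurons stood apart: Gria2 made up 47.7% and 35.8% in libraries 1 and 2, and Gria1 33.8% and 40.9%. In library 2 Gria1 exceeded Gria2 in these cells, with 65 against 57 UMIs. Gria4 made up 9.33 ± 0.144% of AMPA UMIs in Pvalb-like neurons (n = 2) and 1.29 ± 0.356% in D1-like neurons (n = 3). The Pvalb-like share rests on 6 of 65 and 15 of 159 UMIs, so its SD understates the counting error. In the 4 such cells of library 3 the share was 22.9%, on 8 of 35 UMIs. OPC had nearly no Gria1 (0.694 ± 1.20%), and shared a high Gria4 share (9.51 ± 6.24%, n = 3) with Pvalb-like neurons. The Gria4 share was also high in oligodendrocytes (16.3 ± 2.42%, n = 3), on 35 Gria4 UMIs in 1255 cells. Shares are described without a test.

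The NMDA mix of spiny neurons was 28.7 ± 5.66% Grin1, 19.5 ± 6.01% Grin2a and 50.2 ± 2.70% Grin2b in D1-like neurons, and 28.9 ± 3.996%, 19.8 ± 4.997% and 50.8 ± 1.60% in the D2-like class (SD, n = 3). These shares differed by less than their spread. Grin2b made up less in Tshz1-Pcdh8 neurons (31.8 ± 0.221%, n = 2), where Grin2a made up 31.8 ± 7.45%. In glutamatergic neurons Grin2b made up 42.0 ± 0.43% (n = 3), below each spiny library. Astrocytes were set apart by Grin2c at 84.8 ± 7.66% (n = 3), on 110 to 197 NMDA UMIs per library. The OPC mix rests on 2, 17 and 13 NMDA UMIs. Grin3a made up 64.7% and 76.9% of them in libraries 2 and 3 and none of the 2 in library 1. In the Sst-Npy-like library Grin3a and Grin1 made up 26.5% each, of 34 UMIs.

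**Figure D3:**
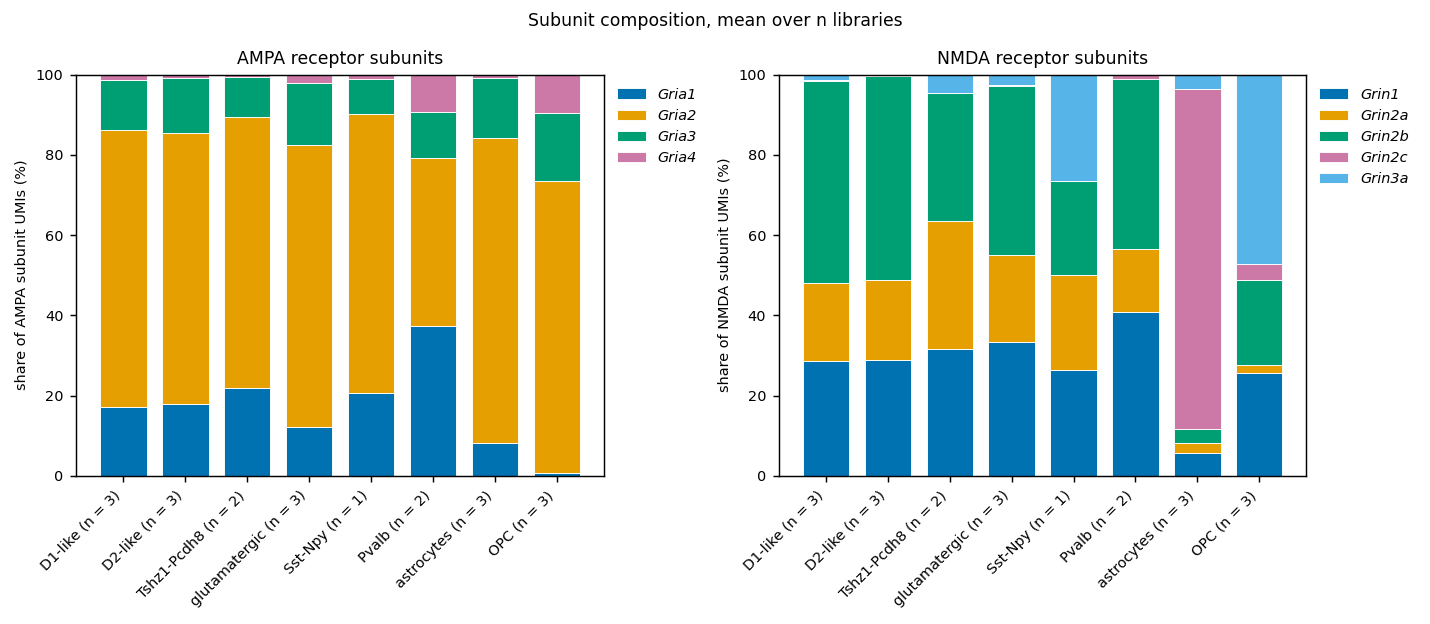
Mean share of each subunit in the AMPA (left) or NMDA (right) subunit UMIs of a class, in percent (y axis, stacked to 100), for 8 classes (x axis) with the number of libraries n. Mean Gria2 shares lie between 67.4% and 76.0% in every class but Pvalb-like neurons, Grin2c dominates astrocytes, and the OPC bar of NMDA subunits averages a library of 2 UMIs with those of 17 and 13.

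The balance of both families also differed between classes. AMPA UMIs were 2.47 ± 0.386 times NMDA UMIs in D1-like neurons, 2.65 ± 0.364 times in D2-like neurons and 2.56 ± 0.197 times in glutamatergic neurons (SD, n = 3). Pvalb-like neurons had a ratio of 4.26 ± 0.541 (n = 2) and OPC of 7.93 ± 3.82 (n = 3). Both stood above every spiny library, whose highest ratio was 2.99. The OPC ratios were 12, 4.41 and 7.38 in libraries 1 to 3, on only 2, 17 and 13 NMDA UMIs. Those of Pvalb-like neurons rest on 14 and 41 NMDA UMIs. Astrocytes had the lowest of these ratios, at 1.09 ± 0.131 (n = 3). Summed AMPA levels were 2419 ± 380.1 CPM in D1-like neurons, 1041 ± 96.7 CPM in OPC and 267 ± 58.7 CPM in astrocytes, beside 76.8 ± 68.7 CPM in microglia. Summed NMDA levels were 996 ± 210.1, 159 ± 87.4 and 243 ± 28.2 CPM in the same 3 classes, beside 40.9 ± 33.5 CPM in microglia.

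Shares of cells with a UMI were compared at equal depth. After each cell was thinned to 1000 UMIs and shallower cells were left out, a Gria2 UMI was found in 79.2 ± 6.46% of D1-like neurons, 81.7 ± 5.95% of the D2-like class, 52.6 ± 8.01% of OPC and 21.9 ± 2.58% of astrocytes, against 1.94 ± 1.69% of microglia (SD, n = 3). Thinning left only 9, 29 and 23 OPC of libraries 1 to 3, so library 1 fell under 10 cells for this class. Grin2c was found in 18.9 ± 2.08% of thinned astrocytes, against 0.968 ± 0.846% of microglia. Before thinning it was found in 35.7 ± 7.09% of astrocytes, whose median depths were 1591, 1856 and 3147 UMIs, and in 0.781 ± 0.252% of microglia, at 1004.5, 973 and 1104 UMIs. Gria2 before thinning was found in 92.3 ± 4.24% of D1-like neurons. Gria4 was found in 24.4 ± 0.842% of thinned Pvalb-like neurons (n = 2) and 2.07 ± 0.797% of D1-like neurons. The Pvalb-like value rests on 3 of 12 and 5 of 21 cells.

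Summed counts per class and library were then compared with edgeR's quasi-likelihood test over 11666 genes, of which 9 of the 10 subunits passed the filter on low counts and Grin2d did not. The average of D1-like and D2-like neurons, called spiny neurons, served as the reference in 5 comparisons, which therefore share these sums. A gene was called at an adjusted p under 0.05. Fold changes are on the log2 scale of the fit after TMM scaling.

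Against astrocytes, spiny neurons had more of 7 subunits and less of 2, where 54.0% of all genes were called (25.6% higher, 28.5% lower). The median log2 fold change was 2.66 over the 9 subunits and -0.01 over all genes. Grin2b was higher by a log2 fold change of 5.11 (SE 0.39, edgeR adjusted p = 7.62e-18). Grin2a stood at 4.43, Gria1 at 3.68, Grin1 at 3.64, Gria4 at 2.66, Gria2 at 2.55 and Gria3 at 2.54, with edgeR adjusted p-values from 8.63e-05 down to 5.04e-15. Each was higher in spiny neurons in 3 of 3 libraries. The astrocyte levels of Gria1, Gria4, Grin1, Grin2a and Grin2b did not stand clearly above microglia. The size and order of these 5 folds are therefore not a measure of astrocyte expression. Grin2c was lower by a log2 fold change of -6.14 (SE 0.32, edgeR adjusted p = 2.26e-28), the astrocytes again being higher in 3 of 3 libraries. Grin3a was called lower as well, at -1.52 (SE 0.60, edgeR adjusted p = 0.0268), but D1-like neurons (4.60, 18.03 and 13.1 CPM) overlapped astrocytes (7.90, 12.5 and 5.58 CPM). The fitted average is drawn down by D2-like neurons (0, 2.48 and 0 CPM), and pooled over both spiny classes the CPM ratio was 1.16 (95% counting interval 0.67 to 2.13). With library 1 left out the edgeR adjusted p of Grin3a was 0.161, and with library 2 left out 0.0674, so either omission ended the call.

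OPC had Gria2, Gria3 and Gria4, and few UMIs of Gria1, Grin1, Grin2a and Grin2b. Spiny neurons had more of 6 subunits than OPC and less of 1, where 27.4% of all genes were called (16.3% higher, 11% lower), with a median log2 fold change of 1.41 over the 9 subunits and 0.37 over all genes. Gria2 was higher in spiny neurons by 1.41 (SE 0.29, edgeR adjusted p = 9.74e-05) and Gria3 by 0.92 (SE 0.33, edgeR adjusted p = 0.0312). Both differences are small beside that of Grin1 (3.52, SE 0.53), for which OPC had only 5 UMIs. They are also small beside those of Gria1, Grin2a and Grin2b, for which OPC had only 2, 1 and 3 UMIs. As pooled CPM ratios these 3 were 38.3 (95% counting interval 10.6 to 317), 36.5 (6.53 to 1441) and 26.1 (8.94 to 127). For Grin1 the ratio was 8.40 (3.59 to 25.9), with a mean in OPC of 30.3 CPM beside 21.9 CPM in microglia. Gria4 was lower in spiny neurons in 3 of 3 libraries but did not pass (-1.29, SE 0.54, edgeR adjusted p = 0.0659). It did pass in 6 of 16 alternatives, among them DESeq2 (-1.57, adjusted p = 0.0133), Leiden clusters (-1.38, edgeR adjusted p = 0.00712) and upper-quartile scaling (-1.51, edgeR adjusted p = 0.0364). Grin3a was lower in spiny neurons by -4.36 (SE 0.61, edgeR adjusted p = 3.87e-08) and higher in OPC in 2 of 3 libraries. Of 16 alternatives 8 ended the Gria3 call, among them leaving out library 1 or library 3 (edgeR adjusted p = 0.137 and 0.130), DESeq2 (adjusted p = 0.184), and upper-quartile and library-size scaling (edgeR adjusted p = 0.124 each). The 8 neuron markers summed to 892, 1345 and 1560 CPM in OPC, with 2, 1 and 2 of the 8 at 0, above the other glial classes of the same library, and their part in the OPC levels was not tested. Gria1, abundant in spiny neurons, had 0, 0 and 2 UMIs in OPC of libraries 1 to 3, among 25788, 67664 and 88450 UMIs of the class. From such small counts no conclusion on the source is drawn.

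Directly against astrocytes, OPC had more of 4 subunits and less of 1, where 15.6% of all genes were called (4.72% higher, 10.9% lower). The median log2 fold change was 0.12 over the 9 subunits and -0.37 over all genes. Gria4 was higher by 3.96 (SE 0.79, edgeR adjusted p = 0.000102), Grin3a by 2.85 (SE 0.63, edgeR adjusted p = 0.000519), Gria3 by 1.62 (SE 0.41, edgeR adjusted p = 0.00289) and Gria2 by 1.14 (SE 0.33, edgeR adjusted p = 0.00997). The 3 AMPA subunits were higher in OPC in 3 of 3 libraries and Grin3a in 2 of 3. Grin2c was lower by -4.92 (SE 0.65, edgeR adjusted p = 7.46e-09), on 2 UMIs in OPC, and its pooled CPM ratio was 0.053 (95% counting interval 0.0065 to 0.19). Without library 3, 2 subunits were called, and the edgeR adjusted p was 0.331 for Gria2, 0.120 for Gria3 and 0.0651 for Grin3a.

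**Figure D4:**
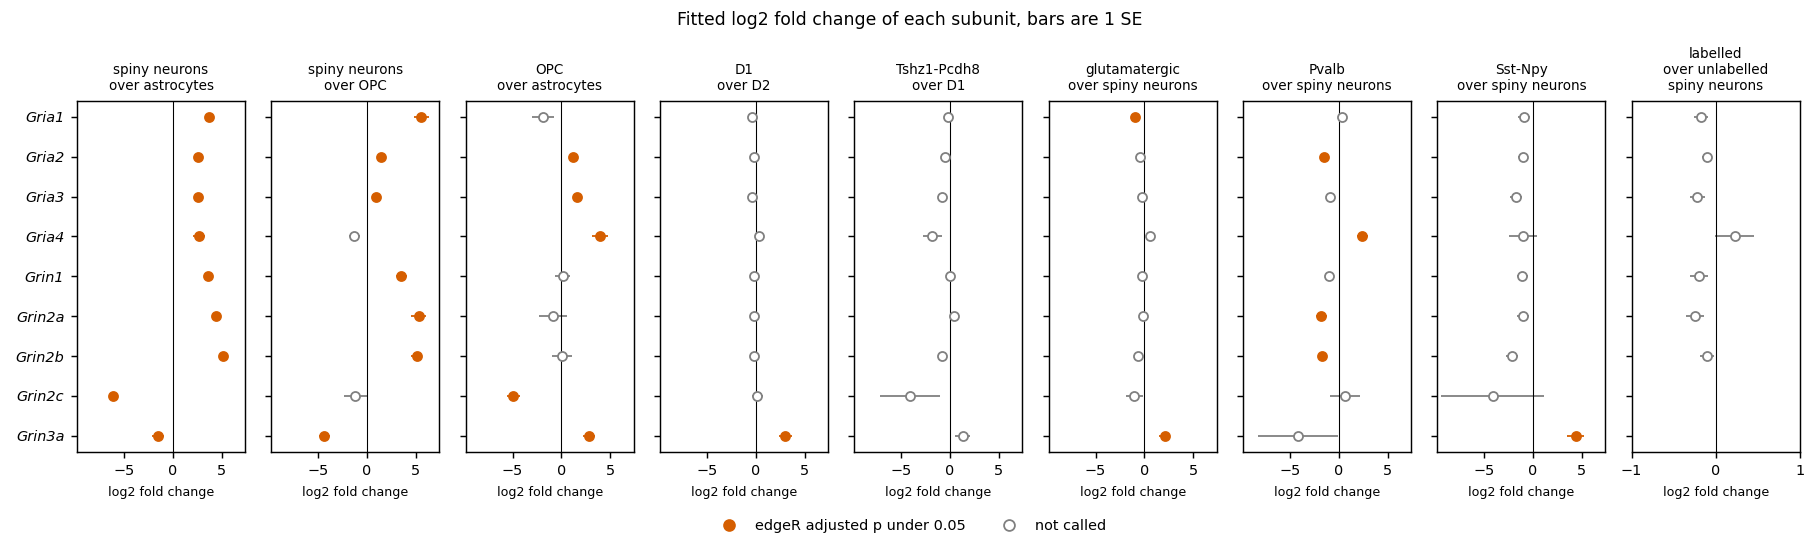
Fitted log2 fold change (x axis, from -1 to 1 in the last panel) of each subunit (y axis) in 9 comparisons, with bars of 1 SE; filled points had an edgeR adjusted p under 0.05. Most subunits are called between neurons and glia, few between neuron classes, and none in Tshz1-Pcdh8 over D1-like neurons or in labelled over unlabelled neurons.

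D1-like and D2-like spiny neurons, which feed the direct and indirect output routes of the striatum, had 1 called difference among the 9 subunits, Grin3a, where 0.403% of all genes were called (0.24% higher, 0.163% lower). Grin3a stood at 4.60, 18.03 and 13.1 CPM in D1-like neurons (1, 61 and 10 UMIs) and at 0, 2.48 and 0 CPM in D2-like neurons (0, 5 and 0 UMIs). The D1-like value was the higher in each of 3 libraries, with a log2 fold change of 3.04 (SE 0.66, edgeR adjusted p = 0.00700). Leaving out library 2, which held most of these UMIs, ended the call (4.71, edgeR adjusted p = 0.819), as did leaving out library 3 (2.74, edgeR adjusted p = 0.353). It was also lost with DESeq2 (3.26, adjusted p = 0.173) and in the edgeR fit without the library block (2.96, adjusted p = 0.170). The other 8 subunits had log2 fold changes between -0.38 and 0.34. Gria2, Gria3 and Grin2b were lower in D1-like neurons in 3 of 3 libraries, at -0.23, -0.38 and -0.16, and Gria4 was higher in 3 of 3, at 0.34, all with edgeR adjusted p-values of 1. When the fit held these 2 classes only, Gria2 (-0.20, edgeR adjusted p = 0.0323) and Gria3 (-0.36, edgeR adjusted p = 0.00546) were called and Grin3a did not pass the low-count filter. The medians were -0.18 over the 9 subunits and 0.00 over all genes.

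Pvalb-like interneurons, fast-spiking cells that inhibit spiny neurons, had more Gria4 and less Gria2, Grin2a and Grin2b, where 7.83% of all genes were called (2.33% higher, 5.5% lower). Gria4 was higher by a log2 fold change of 2.43 (SE 0.51, edgeR adjusted p = 0.000594), above spiny neurons in 2 of 2 libraries. Gria2 was lower by -1.52 (SE 0.35, edgeR adjusted p = 0.00210), Grin2b by -1.74 (SE 0.43, edgeR adjusted p = 0.00437) and Grin2a by -1.78 (SE 0.53, edgeR adjusted p = 0.0214), each in 2 of 2 libraries. These values are to be read beside the median of all genes, -0.62, and the median of the 9 subunits was -0.95 (-0.93 without Grin3a, which had 0 UMIs in Pvalb-like neurons). With other scalings that median of all genes moved to -0.20 (upper quartile) and 0.09 (DESeq2). Gria4 was then the only subunit called, and the 3 lower subunits kept their direction (Gria2 -1.01 under both). Gria1 was higher in Pvalb-like neurons in 2 of 2 libraries on the CPM scale, with a fitted log2 fold change of 0.34 that did not pass (SE 0.41, edgeR adjusted p = 0.715). Without library 2 no subunit was called and the Gria4 edgeR adjusted p was 0.179. Without library 1, Grin2a and Grin2b were not called (edgeR adjusted p = 0.112 and 0.0897).

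Sst-Npy-like interneurons had more Grin3a, where 2.31% of all genes were called (0.934% higher, 1.37% lower). The log2 fold change over spiny neurons was 4.34 (SE 0.87, edgeR adjusted p = 0.00101). The class enters with library 2 alone and is assumed to vary like the other classes, so this comparison has no replicate of its own. With classes of at least 5 cells, an alternative chosen after the data were seen that brings in all 3 libraries, Grin3a stayed called and Gria2 (-1.32), Gria3 (-1.74) and Grin2b (-1.61) were called lower, with edgeR adjusted p-values of 0.00186, 0.00245 and 0.00221. With library 2 alone these 3 stood at -1.04, -1.71 and -2.16 and did not pass, with edgeR adjusted p-values of 0.277, 0.137 and 0.0529. The median was -1.06 over the 9 subunits (-1.05 without Grin2c, at 0 UMIs in library 2) and -0.77 over all genes.

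Glutamatergic neurons, marked by Slc17a7 and Tbr1, had more Grin3a and less Gria1 than spiny neurons, where 14.3% of all genes were called (8.2% higher, 6.09% lower). Grin3a stood at 21.4, 19.0 and 23.3 CPM, above the average of the spiny classes in 3 of 3 libraries, with a log2 fold change of 2.09 (SE 0.55, edgeR adjusted p = 0.00422). The D1-like value of library 2, 18.03 CPM, lay just below that range. These glutamatergic levels rest on only 2, 9 and 12 UMIs. D2-like neurons, at 0, 2.48 and 0 CPM, lower the spiny average used in the fit. With the UMIs of both spiny classes pooled, the glutamatergic CPM was 2.02 times theirs (95% counting interval 1.21 to 3.26), a smaller difference than the fitted one. Gria1 was lower by -0.99 (SE 0.33, edgeR adjusted p = 0.0386) in 3 of 3 libraries. Neither was called without library 3, with edgeR adjusted p-values of 0.201 and 0.164. Gria1 was also not called without library 1 (0.0983) or library 2 (0.0754). Grin2b was lower in 3 of 3 libraries and did not pass (-0.69, SE 0.27, edgeR adjusted p = 0.0757). The medians were -0.24 over the 9 subunits and -0.10 over all genes.

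Tshz1-Pcdh8 neurons, a small class that some studies call eccentric spiny neurons, were compared with D1-like neurons. The listed D1 markers summed to 3292 and 816 CPM in this class in libraries 2 and 3, beside 4116 and 3565 CPM in D1-like neurons. The class thus carried many D1 markers in library 2 and fewer in library 3. How far this shaped the comparison was not tested. No subunit of 9 was called with edgeR, where 0.617% of all genes were (0.343% higher, 0.274% lower), and 2 subunits had an unadjusted p under 0.05. DESeq2 called 0 as well, also with 2 at an unadjusted p under 0.05. Those 2 in edgeR were Gria3 (-0.84, SE 0.39) and Grin2b (-0.85, SE 0.39), both lower in 2 of 2 libraries. Grin2a, higher on the CPM scale in 2 of 2 libraries, had a fitted log2 fold change of 0.38 (SE 0.37, edgeR adjusted p = 0.791), beside a median of -0.42 over all genes. Grin3a was 29.3 and 75.5 CPM, above D1-like neurons of the same libraries, on 3 and 5 UMIs (1.27, SE 0.75, edgeR adjusted p = 0.609). The median of the 9 subunits was -0.56 (-0.39 without Grin2c, at 0 UMIs in this class).

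Spiny neurons with at least 1 mCherry UMI were called labelled and compared with the rest of their class. Labelled arms of library 1 held 9 and 8 cells and were left out, so 4 pairs of class and library remained, among them 288 labelled and 895 unlabelled D1-like neurons of library 2. No subunit was called among the 7 that passed the low-count filter, where 0.394% of 7608 genes were (0.25% higher, 0.145% lower). At an unadjusted p under 0.05 edgeR gave 3 subunits and DESeq2 0, and DESeq2 called 0. Gria1, Gria3 and Grin2a were the 3, with log2 fold changes of -0.18 (SE 0.09), -0.22 (SE 0.09) and -0.25 (SE 0.11). They were lower in labelled neurons in 4 of 4 pairs, as was Grin1 (-0.20, SE 0.10). Grin2a, for example, stood at 166 against 212 CPM (D1-like) and 184 against 218 CPM (D2-like) in library 2. In library 3 it stood at 190.4 against 198 and 163 against 189 CPM. None of these differences passed the adjustment (edgeR adjusted p from 0.387 to 0.515). The labelled cells were deeper in these pairs, at a median of 3201 against 2451 UMIs in D1-like neurons of library 2. With unlabelled neurons matched on UMIs no gene of any kind was called, 248 genes having an unadjusted p under 0.05 in edgeR. The difference of the label effect between D2-like and D1-like neurons was called by edgeR for none of the 7 subunits, with 0 at an unadjusted p under 0.05, nor for any gene, with 334 at an unadjusted p under 0.05.

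The partners of these receptors were followed through a list of 44 genes, 42 of them tested: AMPA auxiliary subunits, NMDA partners, postsynaptic scaffolds, trafficking proteins, CaMKII isoforms and RNA-editing enzymes. In spiny neurons over astrocytes 29 were higher and 6 lower, beside 25.6% and 28.5% of all genes, with a median log2 fold change of 1.98. Among the rises were those of Dlgap2 (7.04), a scaffold, and Cnih3 (5.54), an AMPA auxiliary subunit. Homer3 (-4.79), Shisa6 (-2.73) and Camk2d (-2.46) were lower. Over OPC 23 were higher and 3 lower, beside 16.3% and 11% of all genes, with a median of 2.12. Cacng3 (8.79), Dlgap2 (7.09) and Shisa9 (4.70) led. The OPC sums held only 25788, 67664 and 88450 UMIs, so the size and order of these rises are uncertain. The 3 lower genes were the AMPA auxiliary subunits Cacng5 (-2.36) and Cacng4 (-1.73) and the scaffold Dlgap1 (-1.82).

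In OPC over astrocytes 5 partners were higher and 5 lower, beside 4.72% and 10.9% of all genes, with a median of -0.01. The AMPA auxiliary subunits Cacng4 (6.18, SE 0.49, edgeR adjusted p = 6.55e-17) and Cacng5 (5.58, SE 0.99, edgeR adjusted p = 1.44e-05) rose with Neto1 (3.26). Camk2g (-3.51), Shisa9 (-3.38) and Grina (-2.64) were lower. Between D1-like and D2-like neurons, and between labelled and unlabelled neurons, no partner was called, with 3 of 42 and 4 of 32 at an unadjusted p under 0.05 in edgeR; DESeq2 called 0 in both, with 2 each. Beside 8.2% higher and 6.09% lower over all genes, in glutamatergic over spiny neurons 15 were higher, led by Homer2 (3.08), Camk2d (2.97) and Dlgap1 (2.76), and 4 lower, among them Cacng4 (-3.70), Neto1 (-1.90) and Shisa9 (-1.01). In Pvalb-like over spiny neurons 5 were higher and 8 lower, beside 2.33% and 5.5% of all genes. The AMPA trafficking scaffolds Grip1 (3.20) and Grip2 (2.65) and the scaffold Dlgap1 (2.48) were higher, and Shisa9 (-4.32), Dlg1 (-3.65) and Cacng3 (-3.01) lower. Sst-Npy-like neurons had 1 higher (Camk2d, 2.23) and 2 lower (Camk2b, -3.46, and Homer1, -2.33), beside 0.934% and 1.37% of all genes. Tshz1-Pcdh8 over D1-like neurons had 2 higher, Dlgap1 (2.45) and Camk2d (2.37), beside 0.343% of all genes. Adarb1, singled out after its values were seen because it edits the Gria2 codon shown above, stood at 71.9 ± 20.6 CPM in D1-like neurons, 55.6 ± 12.8 CPM in the D2-like class, 15.7 ± 8.99 CPM in astrocytes and 14.8 ± 25.6 CPM in OPC (SD, n = 3), beside 9.34 ± 5.34 CPM in microglia. It was higher in spiny neurons than in astrocytes (1.45, SE 0.37, edgeR adjusted p = 0.000637) and than in OPC (2.12, SE 0.73, edgeR adjusted p = 0.0222). In OPC the SD of Adarb1 exceeded its mean and the level rests on few UMIs, so the size of that fold is uncertain.

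Across the 29 sums of class and library, the gene most like each subunit was found by Pearson's r of log2(CPM + 10), given as a description because sums of a library or class are not independent. Grin1 and Grin2b were each other's nearest gene (r = 0.984), and Gria3 was the second nearest of Gria2 (r = 0.969) after Map2 (r = 0.970). The genes nearest to Gria1 were Tspyl5 (r = 0.959) and Lonrf2 (0.957), and those nearest to Gria3 after Gria2 and to Grin2a were Rtn1 (0.962) and Rbfox3 (0.976), the latter a marker used in the neuron gate. Grin1 was also near Celf4 (0.974), another gate marker, Grin2a near Rbfox1 (0.976) and Grin2b near Cx3cl1 (0.974). Grin2c was nearest to Plcd4 (0.959) and to Gjb6 (0.953), which is an astrocyte gate marker. Gria4 and Grin3a had no close neighbour, with Cntn6 (0.844) and Fam174b (0.825) nearest to Gria4 and Tmem255a (0.848) and Elfn1 (0.811) nearest to Grin3a.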

How the data were processed

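Libraries were made with the 10x Genomics 3′ kit, version 2, per the labels, from 3 samples of 1 group. The authors deposited 1 pooled matrix of raw UMI counts, made with Cell Ranger (version 3.0.0, per the file headers; build mm10, per the submitters' processing notes); the annotation and the cell-calling rule are not given in the sources used here. Cells under 300 genes or above 20% mitochondrial UMIs were left out, and the highest Scrublet scores of each library (scanpy 1.11.5) were removed at 0.8% per 1000 cells (368 cells). A cell was gated by at least 3 of 8 broad markers, with no other class above 50% of that number. A neuron class needed at least 2 of 5 markers and 3 UMIs. For a neuron with at least 2 Tshz1-Pcdh8 markers the D1 list was set aside, so such a neuron could also carry D1 markers. The 631 cells with mixed markers were left out. Counts were summed per library and class of at least 10 cells and tested in 1 edgeR 4.0.16 fit (R 4.3.3) of 29 sums, with TMM scaling, filterByExpr, a robust prior, the library as a block, and p-values adjusted over all genes tested by the Benjamini-Hochberg method. The block pairs sums because they come from the same library. Labelled and unlabelled sums were fitted separately, with class as covariate. Standard errors are the log2 fold change over the square root of F. The script was tested on simulated counts.

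The subunits, the 44 partner genes and the marker lists were chosen with earlier results of these data known. Named genes are all 10 subunits, up to 3 called partners with the largest change per direction and comparison, and the 2 genes most like each subunit. Codons were located in GENCODE M21 transcripts by a conserved pore motif; Grin3a lacks it and is not shown, and Grin2d, with no UMI, is not shown. A partner gene that the naming rule selects and a further codon sequence are not reported here. Alternatives were DESeq2 1.42.0, upper-quartile and library-size scaling, no filter, the package-default prior, no replicate block, only the classes compared, other gates, Leiden clusters, no doublet removal, cells of at least 1000 UMIs, classes of at least 5 cells, at least 2 mCherry UMIs, UMI-matched neurons, and each library left out. Library-size scaling and the 5-cell minimum were chosen after seeing the data.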

Additional observations from a re-analysis of the deposited data

How the results depend on the processing

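Of the fitted log2 fold changes under the alternatives, 1098 kept direction and side of the threshold, 55 lost the call, 14 gained it and 27 changed sign, none of them a called subunit; the cause was not tested. The count of subunits called kept within 1.5 times its value in spiny neurons over astrocytes (9), spiny neurons over OPC (7), Tshz1-Pcdh8 over D1 (0) and labelled neurons (0). Leaving out each library gave 2 to 5 called in OPC over astrocytes, 0 to 1 in D1 over D2, 0 to 4 in Pvalb and 0 to 1 in glutamatergic over spiny neurons. D1 over D2 gave 0 with DESeq2 and with no replicate block, and 2 with only the classes compared. Sst-Npy gave 4 with classes of at least 5 cells, and 2 with no low-count filter and with the stricter gate. Pvalb gave 0 with only the classes compared, and 1 with DESeq2, library-size scaling, upper-quartile scaling and the stricter gate; glutamatergic neurons gave 1 with DESeq2, Leiden clusters, the looser gate, no replicate block, only the classes compared, library-size and upper-quartile scaling. The library block comes from the shared library of the sums, and without the block Grin3a (spiny neurons over astrocytes), Gria3 (over OPC), Gria2 (OPC over astrocytes), Grin2a (Pvalb) and Gria1 (glutamatergic) also lost their calls (edgeR adjusted p = 0.0873, 0.0904, 0.0530, 0.0981 and 0.221). Changes of sign among subunits not called were as follows. In OPC over astrocytes, Leiden clusters gave -0.40 for Grin1, 0.16 for Grin2a and -0.075 for Grin2b, cells of at least 1000 UMIs gave -0.14 for Grin1, and Grin2b was -0.050 with no doublet removal and -0.057 with no filter. In D1 over D2, Leiden clusters gave 0.018 for Grin1, 0.26 for Grin2a and 0.070 for Grin2b, and the stricter gate 0.023 for Grin1. In Tshz1-Pcdh8 over D1, Gria1 was 0.085 with DESeq2, 0.079 with only the classes compared, 0.12 with library-size and 0.095 with upper-quartile scaling, Grin1 was -0.054 with no replicate block and -0.87 with the stricter gate, and Grin2a -0.072 with the stricter gate. Grin2c was 0.85 in Sst-Npy with classes of at least 5 cells, and Grin3a 0.011 in Pvalb with DESeq2. Leaving out each library gave Grin2c -1.81 to 2.55 in spiny neurons over OPC, -0.066 to 0.27 in D1 over D2, -2.67 to 0.996 in Pvalb and -4.31 to 0.59 in glutamatergic neurons. It gave Grin1 -0.14 to 0.83 and Grin2b -0.65 to 1.21 in OPC over astrocytes, Grin1 -0.31 to 0.25 in Tshz1-Pcdh8 and Grin2b -0.18 to 0.089 in labelled neurons. Over all genes, D1 over D2 had 47 calls, against 469 with Leiden clusters, 256 with only these classes, 72 with no filter, 28 with DESeq2, 21 with no block, and 29 and 25 without libraries 2 and 3. Labelled neurons had 30, against 12 with at least 2 mCherry UMIs, 9 with DESeq2, 8 and 5 with the looser and stricter gates, 13 and 3 without libraries 2 and 3, and 0 with no block or UMI matching. Sst-Npy had 269, against 944 with at least 5 cells, 121 with no block, 148 with library-size and 174 with upper-quartile scaling. Pvalb had 914, against 335 with the stricter gate, 0 with only these classes, and 440 and 204 without libraries 1 and 2. Glutamatergic neurons had 1668, against 765 without library 3. OPC over astrocytes had 1821, against 1147 with only these classes, and 1172 and 915 without libraries 2 and 3. Spiny neurons over OPC had 3192, against 2078 with only these classes and 1614 without library 3. Tshz1-Pcdh8 had 72, against 128 with no filter, 32 with no block, 3 with only these classes and 5 without library 3. Scaling moved the split of higher and lower genes: with TMM, library size, upper quartile and DESeq2 it was 551 and 1270, 1232 and 511, 718 and 930, and 699 and 708 in OPC over astrocytes, and 272 and 642, 368 and 251, 389 and 286, and 450 and 172 in Pvalb. In the same order it was 1904 and 1288, 1482 and 1486, 1463 and 1543, and 1108 and 1730 in spiny neurons over OPC, 109 and 160, 114 and 34, 134 and 40, and 218 and 29 in Sst-Npy, and 40 and 32, 46 and 3, 47 and 5, and 79 and 5 in Tshz1-Pcdh8. It was 2981 and 3320 with TMM and 4599 and 2315 with library size in spiny neurons over astrocytes, and 19 and 11, 14 and 19, 18 and 18, and 8 and 1 in labelled neurons. For Sst-Npy, only the classes compared and the fit without library 2 were not run, because the class has 1 sum, from library 2; no Leiden cluster was named Sst-Npy, Pvalb or Tshz1-Pcdh8. OPC values rest on few UMIs, which limits what their depth can show.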
